A study of Mus musculus with 8 samples.

Results

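The stress-response melanoma cells are the 2279 cells with the highest summary score of 6 stress genes among 22783 melanoma cells in 8 B16F10 tumours. The score was the mean natural logarithm of 1 plus the count per 10000 unique molecular identifiers (UMIs, the counted mRNA molecules) of Nupr1, Fgf21, Ddit3, Kdelr3, Hspa5 and Dnajb9. The pooled melanoma cells were ranked and the top 10% were taken, so the overall share of 10.0% is set by the rule. A melanoma cell here is a barcode with 200 to 5000 genes, at most 7.5% mitochondrial UMIs, at least 4000 UMIs and at least 0.3% of its UMIs from the pigment genes Mlana, Pmel, Dct, Tyr and Tyrp1. These gated cells made up 54.3% of the 41925 deposited barcodes, and 20504 of them were left as remaining melanoma cells. Because the 6 genes chose the cells, their levels, and those of every gene measured in the same cells, are described below against the remaining cells without a test. The comparison between host genotypes was not used by the rule and was tested over tumours.

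The study asked what the loss of the transcription factor ATF4 in the host does to a tumour, and profiled large B16F10 tumours, a C57BL/6 mouse melanoma line grown subcutaneously, by droplet single-cell RNA sequencing. All 8 hosts carried Rosa26::CreERT2, a Cre recombinase expressed in most tissues that tamoxifen activates, and all received tamoxifen by oral gavage. The 4 Atf4wt/wt hosts (replicates 1 and 3 male, 2 and 4 female) kept Atf4, and the 4 Atf4D/D hosts (replicate 1 female, 2 to 4 male) had floxed Atf4 deleted, an excision that the study describes as efficient but not complete. The injected melanoma cells were not deleted and carried Atf4 in both groups. Hosts were 12 weeks old by the labels, tumours were taken at 300 mm3, and each tumour gave 1 library of 37283598 to 74942137 UMIs.

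Cells under stress cut general translation through phosphorylation of eIF2alpha, the integrated stress response (ISR). It favours translation of ATF4, which then regulates transcription of its targets for amino acid supply and stress adaptation. When unfolded protein builds up in the endoplasmic reticulum (ER), the kinase PERK feeds this pathway, while IRE1 with XBP1 and the cleaved factor ATF6 induce ER chaperones and degradation genes, together the unfolded protein response (UPR). Melanoma cells, which make much melanosomal and secreted protein in poorly perfused tissue, are a well-known setting for both.

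The score genes cover both arms. Nupr1 (chr7:126623249-126630861 in GRCm38) encodes a small stress-induced chromatin protein, Fgf21 (chr7:45613886-45615490) a secreted metabolic hormone, and Ddit3 (chr10:127290774-127296288) the factor CHOP. Hspa5 (chr2:34771970-34777547) encodes the main ER chaperone BiP, Dnajb9 (chr12:44205559-44210326) its co-chaperone ERdj4, and Kdelr3 (chr15:79516411-79527739) a receptor that returns ER proteins from the Golgi. Stretches of RefSeq promoter windows (GRCm38.p6, 250 bases before to 50 after each start) are shown because 3 of the 6 genes hold the element through which one of these arms is known to act. The capitals mark a CARE, the C/EBP-ATF response element TGATGNAAT, on the reverse strand in Fgf21 and Nupr1, or an ERSE, the ER stress element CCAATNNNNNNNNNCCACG, on the forward strand in Hspa5.
Fgf21, chr7:45615617-45615635, gene strand: cccccATTGCATCAtccgt
Nupr1, chr7:126625568-126625586, gene strand: gccagATTGCATCAgacag
Hspa5, chr2:34772020-34772048, gene strand: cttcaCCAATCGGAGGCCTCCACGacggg
The Fgf21 match ended 132 bases before the RefSeq start and lay outside annotated transcripts. The Nupr1 match ended 103 and the Hspa5 match 47 bases before it, and both fell in an untranslated exon of a longer GENCODE transcript of the same gene. Searched on both strands, the CARE letters were in 0.965% and the ERSE letters in 0.119% of 32851 windows. The windows of Ddit3, Kdelr3 and Dnajb9 held neither, nor the shorter ERSE-II (ATTGGNCCACG, in 0.0365% of windows), which says nothing about sites farther away.

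The score genes were high in stress-response cells of every tumour, as the rule makes them. The values are CPM, counts per 1000000 UMIs summed over the cells of a tumour, which measure the summed cells and not single ones. Fgf21 was at 63.2, 81.6, 66.9 and 87.4 CPM in stress-response cells of Atf4wt/wt tumours 1 to 4 and at 114, 41.9, 48.1 and 88.1 CPM in those of Atf4D/D tumours 1 to 4. In the remaining cells it was at 0.839, 0.639, 1.16 and 2.80 CPM and at 0.688, 1.30, 0.564 and 0.843 CPM, in the same order. No tumour's stress-response cells overlapped any tumour's remaining cells, and Fgf21 had the widest ratio of the 6 genes, a median of 76.6-fold over the 8 tumours.

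**Figure D1:**
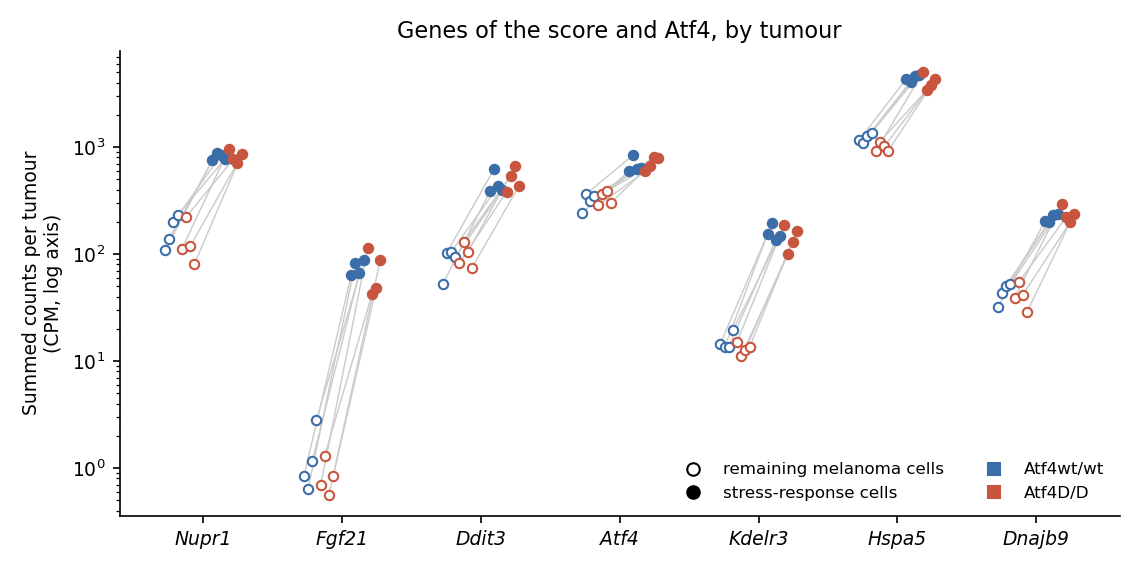
Summed level of each score gene and of Atf4 in CPM on a log axis, with 1 open point per tumour for the remaining melanoma cells and 1 filled point for its stress-response cells, joined by a line and coloured by host genotype. Every line rises, from 1.10 to 73.9 CPM on average for Fgf21 and from 325 to 695 CPM for Atf4, which was not in the score.

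Nupr1 was at 818 ± 84.2 CPM (SD, n = 8 tumours) in stress-response cells and 151 ± 57.4 CPM in remaining cells. Ddit3 was at 481 ± 111 against 92.7 ± 23.0 CPM, and Kdelr3 at 151 ± 30.5 against 14.2 ± 2.43 CPM. Hspa5, with a UMI in 100% of stress-response and 98.8% of remaining cells, was at 4285 ± 514 against 1105 ± 156 CPM, and Dnajb9 at 227 ± 31.7 against 42.8 ± 9.36 CPM. The median ratios over tumours were 6.18-fold for Nupr1, 5.21-fold for Ddit3, 10.3-fold for Kdelr3, 3.74-fold for Hspa5 and 4.66-fold for Dnajb9. At the limit of the score the last cell taken had 1.23708 and the first left out 1.23705, and 364 stress-response and 456 remaining cells lay within 5% of it, so the class is a range cut from a score. The last cell taken, of Atf4wt/wt tumour 1 with 9058 UMIs, held 6 Nupr1, 1 Ddit3, 44 Hspa5 and 1 Dnajb9 UMIs, and the first left out, of the same tumour with 7127 UMIs, held 4, 2, 19 and 1, with no Fgf21 or Kdelr3 in either.

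At least 1 UMI of all 6 genes was found in 349 stress-response cells (15.3%) and 14 remaining cells, while 968 stress-response cells had 5 of the genes and 846 had 4. Depth limits these counts, since a cell with 0 UMIs of a gene may still express it. Fgf21 was the rarest, with a UMI in 573 of 2279 stress-response cells (25.1%) and in 219 of the remaining cells. By tumour the share with Fgf21 ran from 19.4% in Atf4D/D replicate 3 to 30.2% in Atf4D/D replicate 1. With every cell thinned to 1000 UMIs, 5.0% of stress-response cells, 0.0878% of remaining cells and 0.388% of 515 barcodes with immune genes still had an Fgf21 UMI. The immune value is 2 barcodes, and the 692 immune barcodes, of which 177 were too shallow to thin, had a median of 1436 UMIs, under the 4000 required of gated cells, so no order between immune barcodes and remaining cells was read. Nupr1 was found in 53.2%, 13.0% and 3.88% and Hspa5 in 95.8%, 60.2% and 60.6% of these 3 groups after thinning. Within the stress-response cells Spearman's rho between pairs of score genes lay between −0.0888 (Ddit3 and Hspa5) and 0.171 (Fgf21 and Kdelr3), over 2279 cells that share libraries and a selection on the sum of both genes.

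Classes of the same size were also taken by parts of the score. A score of Nupr1, Fgf21 and Ddit3 alone shared 1581 of 2279 cells (69.4%) with the class, and a score of Kdelr3, Hspa5 and Dnajb9 alone shared 1766 (77.5%), while the top 10% by each of these shared 1122 cells (49.2%) with each other. The first 2 overlaps compare a part of the score with the whole, and how far counting noise lowers the third was not tested. A hypoxia class of the same size, chosen on Car9, Bnip3, Ndrg1, Vegfa, Slc2a1 and Egln3, held 242 of the stress-response cells, 10.6% of either class beside the 10.0% of all gated cells that it holds. Within tumours the hypoxia class held 10.8%, 16.4%, 5.69% and 3.58% of the stress-response cells in Atf4wt/wt tumours 1 to 4, beside 6.4%, 13.6%, 5.74% and 3.36% of gated cells. In Atf4D/D tumours 1 to 4 it held 16.8%, 3.88%, 18.75% and 21.8%, beside 15.6%, 7.73%, 11.7% and 17.5%. It was thus larger among stress-response cells in 6 of 8 tumours and smaller in Atf4wt/wt 3 and Atf4D/D 2.

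Other genes of the pathways differed in the same cells. A gene was counted as higher when its log2 ratio of stress-response over remaining cells was at least 1 in each of the 8 tumours, and 84 of 7804 genes compared (1.08%) met this, while 78 (0.999%) were lower by the same measure. Other settings gave 38 to 125 higher and 11 to 146 lower genes. The score and gate genes are not among the 7804, which had at least 10 CPM on average in gated cells, and their median log2 ratio was −0.07. Of the same 7804 genes 21.6% were higher and 32.3% lower in all 8 tumours by any amount, the shares beside which the counts over lists below are to be read. All 13 compared ISR regulators were higher in all 8 tumours, by a median log2 ratio of 1.53, and 6 of them by at least 1 in every tumour. These were Cebpb, a partner of CHOP (median log2 ratio 2.12), Trib3, a pseudokinase that restrains ATF4 signalling (2.00), Ppp1r15a, the GADD34 subunit that reverses eIF2alpha phosphorylation (1.86), Chac1, which degrades glutathione (1.82), Vldlr, a lipoprotein receptor (1.79), and Atf3 (1.53).

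Atf4 mRNA itself was at 593, 837.5, 627 and 640 CPM in stress-response cells of Atf4wt/wt tumours and at 594, 670, 807 and 795 CPM in those of Atf4D/D tumours. The remaining cells had 240 to 387 CPM, so the classes did not overlap across tumours, with a median ratio of 2.08-fold. The cells counted here are melanoma cells, in which Atf4 was not deleted.

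**Figure D2:**
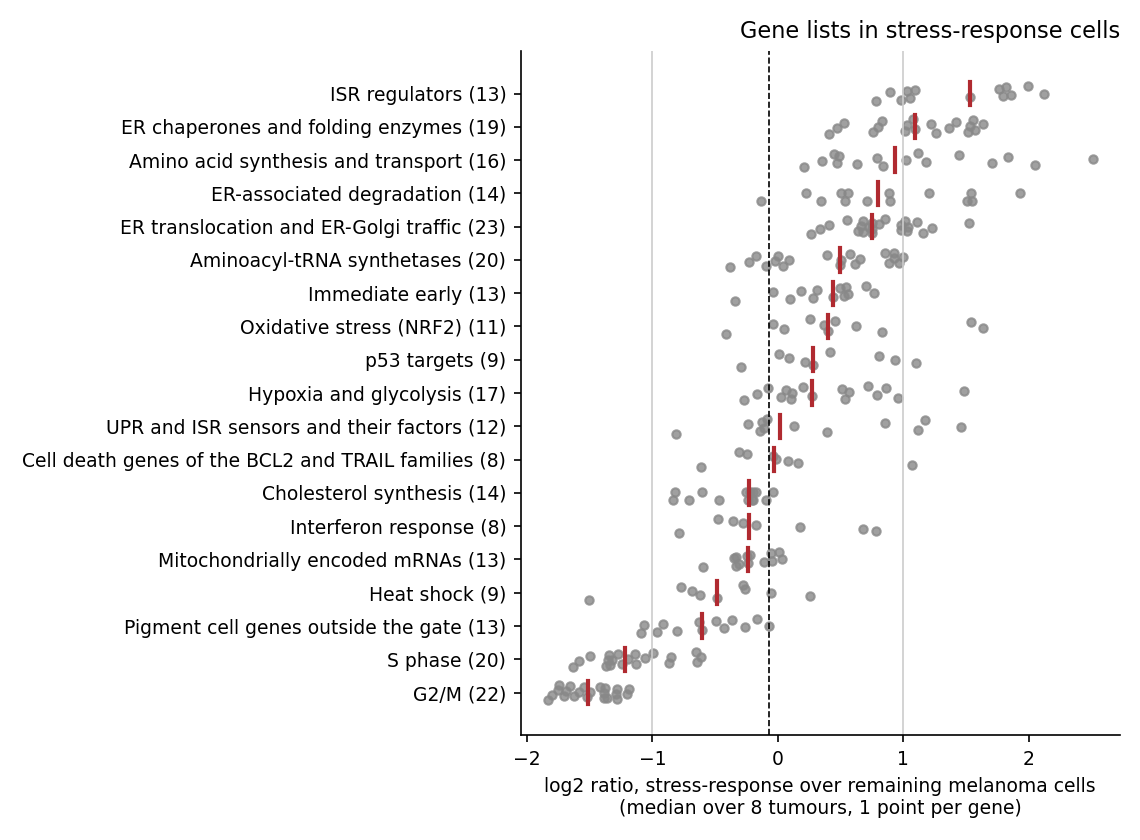
Median log2 ratio over 8 tumours of stress-response over remaining melanoma cells for each compared gene of 19 lists (number of genes in brackets), with a red bar at each list's median, a dashed line at the median of all 7804 genes and grey lines at −1 and 1. ISR regulators (1.53) and ER chaperones (1.10) stand at the top and S phase (−1.22) and G2/M genes (−1.51) at the bottom.

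Genes that supply amino acids and charge tRNA followed in part. All 16 compared genes of amino acid synthesis and transport were higher in all 8 tumours (median log2 ratio 0.93), and 4 reached 1 in each. They were Cth, which makes cysteine (2.51), Aldh1l2, a mitochondrial folate enzyme (2.05), Pycr1, which makes proline (1.84), and Slc7a11, the cystine transporter (1.71). Pycr1 was under 10 CPM in remaining cells (9.32 CPM), so it was compared only through its level in stress-response cells. Asns, asparagine synthetase, was at 571 against 263 CPM (1.18), whereas the leucine transporter gene Slc7a5 (0.35) and the glutamine transporter gene Slc38a2 (0.21) had smaller differences. Of 20 aminoacyl-tRNA synthetase genes none reached 1 in every tumour, and 12 were higher in all 8, beside 21.6% of all genes. The list was split, with Sars (1.00), Wars (0.96) and Gars (0.93) at the upper end and Kars (−0.23) and Mars (−0.38), lower in all 8 tumours, at the other.

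Genes of the ER were higher from protein entry to disposal. Of 19 ER chaperones and folding enzymes besides the score genes, all 19 were higher in all 8 tumours (median 1.10), and Sdf2l1, a BiP cofactor (1.64), Pdia4, a disulfide isomerase (1.57), Creld2 (1.56), Hyou1, a BiP nucleotide exchange factor (1.53), Manf, a secreted ER stress protein (1.52), and Hsp90b1, the ER form of HSP90 (1.36), reached 1 in each. Hsp90b1 was at 2965 CPM in stress-response and 1112 CPM in remaining cells. Of 14 genes of ER-associated degradation 13 were higher in all 8 tumours (21.6% of all genes were), and 5 reached 1 in each, namely Herpud1 (1.93), Sel1l (1.55), the ubiquitin ligase gene Syvn1 (1.54), Selenos (1.51) and Derl1 (1.20). All 23 genes of ER translocation and ER-Golgi traffic were higher in all 8 tumours by a median of 0.75, and Sec24d, a COPII coat subunit (1.53), and Srpr, the signal recognition particle receptor (1.23), reached 1 in each.

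Promoter windows of the chaperones are shown beside these values because the ER stress element was frequent among them, with the element in capitals. It was found in the windows of 7 of the 17 list members that have one (41.2%), beside 0.208% of the 6258 compared genes with a window, and the list was drawn up from known UPR targets, so this is a description of the list.
Hsp90b1, chr10:86705528-86705556, gene strand: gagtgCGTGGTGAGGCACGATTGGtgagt
Creld2, chr15:88819515-88819543, gene strand: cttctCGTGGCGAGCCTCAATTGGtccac
Pdia6, chr12:17266486-17266514, gene strand: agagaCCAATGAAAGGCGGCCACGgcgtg
Herpud1, chr8:94386372-94386392, gene strand: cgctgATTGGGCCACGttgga
The element reads forward in Pdia6 and in reverse in Creld2 and in the stretch shown of Hsp90b1, whose window holds a second one, and the Herpud1 stretch shows the ERSE-II. Of the 84 higher genes 68 had a window, of which 3 held an ERSE, 1 an ERSE-II and 3 a CARE, beside 0.208%, 0.128% and 0.559% of compared genes with a window.

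The sensors themselves were mixed. Of 12 compared genes of UPR and ISR sensors and their factors the median log2 ratio was 0.02. In all 8 tumours 6 were higher and 1 was lower, beside 21.6% and 32.3% of all genes. Creb3, an ER and Golgi membrane-bound factor (1.46), reached 1 in all tumours. Eif2ak3, which encodes PERK, was at 33.2 against 14.99 CPM (1.17), Xbp1 at 208 against 89.8 CPM (1.12) and Atf6 at 113 against 61.7 CPM (0.85), each higher in all 8 tumours. Eif2ak2, which encodes the double-stranded RNA kinase PKR, was lower in all 8 (−0.81), and the genes of the other eIF2alpha kinases, Eif2ak1 (−0.11) and Eif2ak4 (−0.13), were close to the median of all genes. These libraries count 3′ ends and do not show Xbp1 splicing or eIF2alpha phosphorylation.

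Outside the listed pathways the genes with the greatest ratio in the tumour where it was smallest were Akr1b7, an aldo-keto reductase, and Grb14, an adaptor that inhibits insulin receptor signalling. Akr1b7 ran from 44.0 to 85.4 CPM in stress-response cells and from 3.60 to 13.1 CPM in remaining cells (median 9.81-fold), and Grb14 from 52.0 to 133 CPM and from 4.12 to 19.0 CPM (8.69-fold). Neither gene's 2 classes overlapped across tumours. Of the 84 higher genes 7 (Akr1b7, Aldh6a1, Hoxb9, Mageh1, Pycr1, Wfs1 and Zfp9) were under 10 CPM in remaining cells, so they were compared only through their level in stress-response cells and had to differ, and 34 of the 78 lower genes were under 10 CPM in stress-response cells. Isg20, an exonuclease (2.69), Steap1, a metalloreductase-family membrane protein (2.58), Azgp1, a secreted lipid-mobilizing glycoprotein (2.56), Hoxb9, a homeobox factor (2.55), Gadd45a, a growth arrest gene (2.24), and Nucb2, the nesfatin precursor (2.02), followed by the same rule with the median log2 ratios given. Tenm4 (2.67), Angptl6 (2.62), Rcn3, a calcium-binding ER protein (2.35), Cyb5r1 (2.30), Cyb5r2 (2.24), Acot2, a mitochondrial thioesterase (2.03), Wfs1, an ER membrane protein (1.89), Them4 (1.80) and Lhfpl2 (1.56) completed the 20 with Herpud1, Ppp1r15a and Hmox1.

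Genes were also ranked by their ratio between the highest and the lowest scores, a contrast close to the one above since the top part is nearly the stress-response class itself. With the 22783 cells cut into 10 equal parts by score, the 10 genes with the greatest lowest log2 ratio of the top over the bottom part among 7809 genes were Grb14, Hoxb9, Akr1b7, Steap1, Trib3, Cyb5r2, Nucb2, Tenm4, Angptl6 and Cth, with lowest ratios from 2.69 to 3.68 over the 8 tumours. Grb14 rose from 3.43 ± 1.79 CPM in the bottom part to 34.6 ± 11.1 CPM in the ninth and 85.4 ± 28.6 CPM in the top part. Fgf21 was at 0.0447 CPM in the bottom, 4.6 ± 2.50 CPM in the ninth and 76.0 ± 25.0 CPM in the top part, while Nupr1 climbed through every part from 15.2 ± 4.37 to 840 ± 92.8 CPM. Both are genes of the score that made the ranking, so their rise follows from it and is given as a description.

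**Figure D3:**
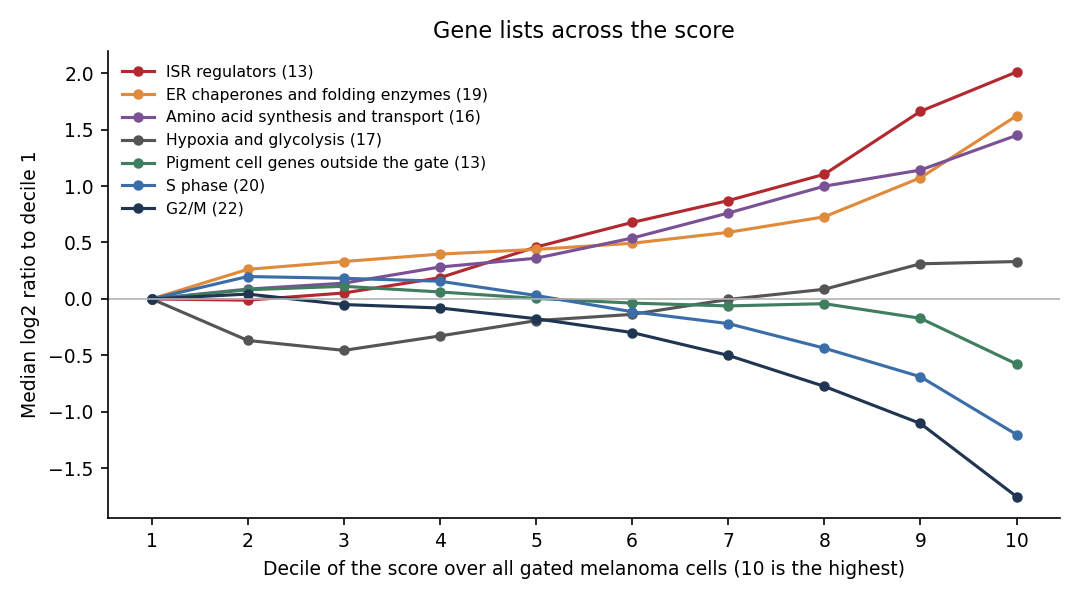
Median log2 ratio to the lowest-scoring 10% of cells (y axis) for 7 gene lists in each of 10 equal parts of gated melanoma cells by score (x axis), as medians over genes and 8 tumours, with the number of genes in brackets. ISR regulators reach 2.01 and ER chaperones 1.62 in the top part, G2/M genes fall to −1.75, and hypoxia genes dip to −0.46 in the third part before reaching 0.33.

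Proliferation genes ran the other way. All 22 G2/M genes were lower in stress-response cells of all 8 tumours, by a median log2 ratio of −1.51, and 12 of them by at least 1 in each. All 20 S phase genes were lower in all 8 (median −1.22), 6 of them by at least 1 in each. Mki67, a marker of cycling cells, was at 59.3 CPM in stress-response and 200 CPM in remaining cells (−1.80), Top2a, the mitotic topoisomerase, at 95.01 against 296 CPM (−1.54), and Rrm2, which makes deoxynucleotides, at 59.5 against 187 CPM (−1.63). The 10 genes lowest by the rule were Prr11, Spc25, Clspn, Kif23, Tk1, Abca12, Acat2, Plk1, Ccna2 and Knl1, with median log2 ratios from −1.60 to −2.0. Of these Abca12, a lipid transporter, and Acat2, a thiolase, are not cell cycle genes. The median share of a cell's UMIs in G2/M genes was 0.0105% to 0.0223% over the 8 tumours in stress-response cells and 0.0488% to 0.115% in remaining cells, with no overlap.

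Pigment genes outside the gate were also lower. Of 13 compared, 12 were lower in all 8 tumours, beside 32.3% of all genes (median −0.61). The 12 include Cdk2, a cell cycle kinase gene (−1.06). Mitf, the master factor of the melanocyte lineage, was at 257, 183, 219 and 142 CPM in stress-response cells of Atf4wt/wt tumours and at 129, 159, 126 and 161 CPM in those of Atf4D/D tumours. In remaining cells it was at 412, 390, 399 and 319 CPM and at 315, 339, 313 and 320 CPM, above the stress-response cells in each tumour (median ratio 2.13-fold lower). The melanosome transporter genes Slc24a5 (−0.07) and Slc45a2 (−0.17) differed far less.

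Other stress pathways were partly shared. Of 11 oxidative stress genes of the NRF2 list 7 were higher in all 8 tumours, beside 21.6% of all genes, and 1 was lower in all 8. The 2 that reached 1 in all tumours were Hmox1, which degrades haem (351 ± 83.1 against 111 ± 26.2 CPM, median log2 ratio 1.64), and Srxn1 (1.54), whereas Txnrd1 (−0.04) and Gsr (−0.42) did not follow. The 9 heat shock genes compared, cytosolic and mitochondrial, had a median of −0.48, and 5 were lower in all 8 tumours, beside 32.3% of all genes. Hspa8 at 1824 against 2561 CPM and Hsp90aa1 at 1619 against 2576 CPM were among them. Hspe1, a mitochondrial co-chaperone, was higher in all 8 (0.26). Of 17 hypoxia and glycolysis genes 8 were higher and 1 was lower in all 8 tumours, beside 21.6% and 32.3% of all genes (median 0.27). The collagen prolyl hydroxylase gene P4ha2, which works in the ER, was the highest of them (1.49) and Ldha, lactate dehydrogenase, the lowest (−0.27). Of 9 p53 targets 5 were higher in all 8 tumours, beside 21.6% of all genes. They were Trp53inp1 (1.10), Cdkn1a (0.94), Plk2 (0.81), Mdm2 (0.28) and Aen (0.22), while Ei24 (−0.30) was lower in all 8, beside 32.3%. The 8 cell death genes had a median of −0.03. Of these Bbc3, which encodes PUMA (19.3 against 9.35 CPM, 1.07), and Bad (0.16) were higher in all 8 tumours, and the pro-death effector gene Bak1 (−0.61) and the survival gene Mcl1 (−0.31) lower in all 8. These counts, 2 of 8 in each direction, lay near the shares of all genes, 21.6% and 32.3%. Bbc3 was under 10 CPM in remaining cells, so it was compared only through its level in stress-response cells. Immediate early genes, which respond quickly to growth signals and to handling of cells, had a median of 0.44, and 7 of 13 were higher in all 8 tumours, beside 21.6% of all genes. Jun was at 484 against 285 CPM (0.77) and Dusp1, a MAP kinase phosphatase gene, at 45.0 against 26.8 CPM (0.71), while Myc (−0.34) was lower in all 8. The part of tissue dissociation in these values was not tested. Interferon response genes had a median of −0.23 over 8 compared and were split, with Rsad2 (0.79) and Isg15 (0.68) higher in all 8 tumours and 4 genes lower in all 8, beside 21.6% and 32.3% of all genes. Of 14 cholesterol synthesis genes 8 were lower in all 8 tumours, beside 32.3% of all genes, and 0 were higher in all 8 (median −0.23), with gene medians from −0.04 for Sc5d to −0.84 for Idi1.

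Stress-response cells had fewer UMIs in each of the 8 tumours (medians 8376.5 to 10933 against 9468 to 11807) and fewer genes after thinning every cell to 4000 UMIs (1697 to 1788.5 against 1742 to 1818). Their median mitochondrial share was lower in each (4.27% to 5.46% against 4.86% to 5.88%), and ribosomal protein genes took more of their UMIs (20.1% to 24.0% against 18.5% to 22.2%). Malat1, a nuclear RNA, was at 11462 CPM in stress-response and 6133 CPM in remaining cells (log2 ratio 0.93). The summed level of 10 fibroblast markers was 42.4 ± 67.1 CPM against 72.8 ± 62.0 CPM, but Atf4D/D replicate 4 alone stood at 207 CPM in stress-response cells and the other 7 tumours at 7.91 to 33.6 CPM. Without it Col1a1, the most abundant of them in stress-response cells, was at 4.68 against 14.7 CPM. The sum of 10 myeloid markers was 36.3 ± 22.3 against 28.1 ± 14.9 CPM. The most abundant in stress-response cells was Cd74, the MHC class II invariant chain, at 13.6 against 4.46 CPM, higher in all 8 tumours with a median log2 ratio of 1.67, whereas the macrophage marker Cd68 was at 5.79 against 6.29 CPM, and the part of myeloid RNA in the Cd74 value was not tested. Every other myeloid marker had a negative median log2 ratio, from −0.01 (Cd68) to −3.13 (Csf1r). These markers were all under 10 CPM and went both ways between tumours. The sum of 7 endothelial markers was 25.2 ± 4.27 against 33.4 ± 5.01 CPM. Of the endothelial sum in stress-response cells 23.5 CPM was Egfl7, and Cdh5, Kdr and Emcn were at 0. Of 8 T and NK markers 5, Cd3e among them, were at 0. After thinning to 4000 UMIs 10.1% of stress-response and 7.43% of remaining cells had a myeloid UMI, with Cd74 counted among the markers. Without cells holding markers of other types 86 genes were higher by the measure above, 77 of them among the 84, and 90 were lower, 70 of them among the 78. Doublets were not called, and 199 barcode sequences occurred in more than 1 library, which concerns 27 stress-response cells.

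The share of stress-response cells among gated melanoma cells varied widely between tumours and overlapped between genotypes. It was 6.08%, 10.3%, 16.4% and 17.2% in Atf4wt/wt tumours 1 to 4 (286 of 4702, 268 of 2610, 334 of 2037 and 419 of 2440 cells) and 8.52%, 12.2%, 8.97% and 5.51% in Atf4D/D tumours 1 to 4 (202 of 2372, 335 of 2742, 288 of 3211 and 147 of 2669 cells). Of the Atf4D/D values 3 lay within the range of the Atf4wt/wt tumours and 1 below it, and the 95% Wilson intervals of the extremes were 15.7% to 18.7% (Atf4wt/wt 4) and 4.70% to 6.44% (Atf4D/D 4). The means were 12.5% ± 5.27 and 8.80% ± 2.75 (SD, n = 4 each), a difference of −3.68 percentage points (two-sided exact permutation test over 70 assignments, p = 0.257, where the smallest possible p is 0.0286). Leaving out 1 tumour at a time gave −2.11 (without Atf4wt/wt replicate 4) to −5.81 percentage points (without Atf4wt/wt replicate 1), and male hosts alone gave −2.34 (2 against 3 tumours, exact p = 0.6, where the smallest possible p is 0.1). In the 3 tumours with the highest shares, Atf4wt/wt 3 and 4 and Atf4D/D 2, the hypoxia class held 5.74%, 3.36% and 7.73% of gated cells, beside 6.4% to 17.5% in the others. The median mitochondrial share of their remaining cells was 5.49%, 4.91% and 4.86%, beside 5.54% to 5.88% in the others, and the part of either in the share was not tested.

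**Figure D4:**
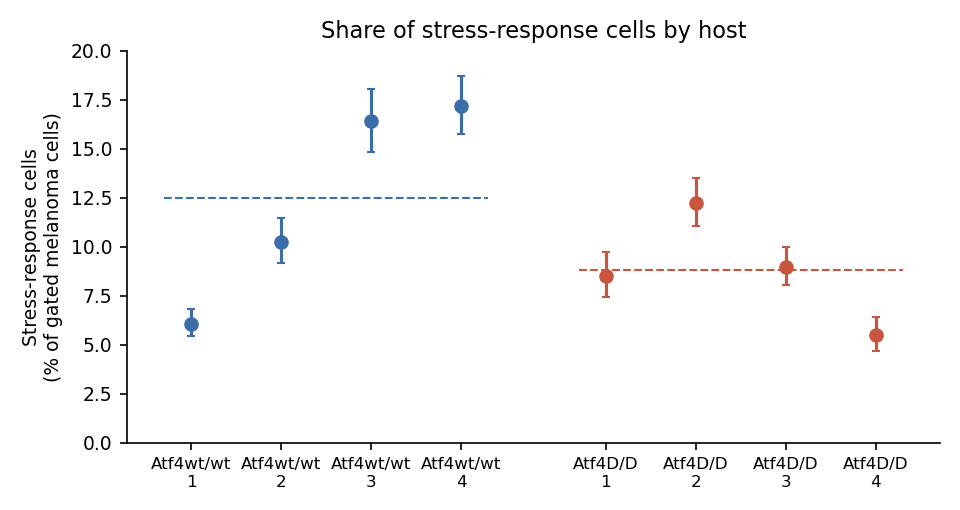
Stress-response cells as a percentage of gated melanoma cells in each tumour, with 95% Wilson intervals that cover counting error only and a dashed line at each genotype's mean. The shares run from 6.08% to 17.2% in Atf4wt/wt and from 5.51% to 12.2% in Atf4D/D hosts and overlap.

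Within the stress-response cells few genes differed between hosts. Fitted by edgeR's quasi-likelihood test on counts summed per tumour, with Benjamini-Hochberg adjustment over 9897 genes, 2 genes (0.0202%) had an adjusted p under 0.05. Pde10a, a cyclic nucleotide phosphodiesterase gene (chr17:8525372-8986648), was at 110.5, 76.3, 86.7 and 95.3 CPM in Atf4wt/wt and at 54.3, 37.1, 44.2 and 60.9 CPM in Atf4D/D tumours, so the groups did not overlap (log2 difference −0.93 ± 0.15 SE, adjusted p = 0.0372). Remaining cells showed the same direction, with an adjusted p of 0.0473 by the same edgeR fit. Eno1b, a near-identical copy of the glycolytic gene Eno1 whose reads cannot be fully told apart from it, was at 6.32, 12.8, 9.85 and 8.92 CPM against 28.1, 23.8, 18.8 and 23.3 CPM (1.30 ± 0.20, adjusted p = 0.0372). In remaining cells Eno1b was at 10.2, 14.1, 11.7 and 7.76 CPM against 22.5, 23.5, 17.0 and 25.9 CPM (1.01 ± 0.17, adjusted p = 0.0951), and the difference between the classes did not pass (adjusted p = 0.984). Leaving out 1 tumour at a time kept the size of both differences, −1.03 to −0.81 for Pde10a and 1.17 to 1.45 for Eno1b, but not the calls. Leaving out Atf4wt/wt replicate 1 or 3 or Atf4D/D replicate 1 left 0 calls, leaving out Atf4D/D replicate 3 gave 11 and Atf4D/D replicate 2 gave 18, and DESeq2 called 13.

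Since the cells were chosen by the level of the score genes, their genotype values are given over all gated melanoma cells. There 0 of 12611 genes (0%) passed by edgeR, 1411 had an unadjusted p under 0.05, and DESeq2 called 121. Fgf21 had a log2 difference of −0.68 ± 0.36 (Atf4D/D minus Atf4wt/wt, adjusted p = 0.522), Kdelr3 −0.43 ± 0.16 (adjusted p = 0.391), Nupr1 −0.38 ± 0.28 (adjusted p = 0.644), Hspa5 −0.37 ± 0.13 (adjusted p = 0.362) and Dnajb9 −0.20 ± 0.23 (adjusted p = 0.781). Leaving out single tumours moved these, except Hspa5, by over 1.5 times, with Fgf21 at −0.32, Kdelr3 at −0.28, Nupr1 at −0.21 and Dnajb9 at −0.06 without Atf4wt/wt replicate 4. Nupr1 was at −0.57 and Dnajb9 at −0.38 without Atf4wt/wt replicate 1, −0.66 and −0.36 without Atf4D/D replicate 2, and −0.21 and −0.06 without Atf4D/D replicate 4, and Dnajb9 was at −0.10 without Atf4wt/wt replicate 3. Ddit3 had 0.01 ± 0.26 (adjusted p = 0.993) and Atf4 0.03 ± 0.15 (adjusted p = 0.964). Both rest on single tumours, with Ddit3 at −0.21 and Atf4 at −0.10 without Atf4wt/wt replicate 1, which had the lowest Ddit3 level, at −0.17 and −0.03 without Atf4D/D replicate 2, and at 0.15 and 0.08 without Atf4D/D replicate 4. Of 20 ER chaperone genes 19 had a negative difference (median −0.15, beside −0.00 over all genes), and 6 were lower at an unadjusted p under 0.05, beside 5.34% of all genes, and 0 passed adjustment. The lean was not particular to chaperones. Amino acid genes (17 of 17 negative, median −0.14), ER translocation and ER-Golgi traffic (19 of 23, −0.08) and interferon genes (13 of 13, −0.64) shared it. Hypoxia (15 of 20 positive, 0.27) and pigment genes (10 of 13, 0.09) leaned the other way.

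Among gene lists in stress-response cells, markers of other cell types set aside, 3 had medians far from that of all genes (0.00) in the genotype fit. No gene of any of the 3 lists passed adjustment. All 22 G2/M genes had a negative difference (Atf4D/D minus Atf4wt/wt), with a median of −0.44 on the log2 scale, and 13 had an unadjusted p under 0.05, beside 3.94% of all genes that were lower at that level. The median of these genes was −0.66 to −0.31 without 1 tumour, and −0.65 to −0.23 in other settings. Their summed level was 936, 894, 911 and 758 CPM in Atf4wt/wt and 619, 830, 531 and 508 CPM in Atf4D/D tumours, so Atf4D/D replicate 2 lay among the Atf4wt/wt tumours. Hmmr, a mitotic spindle gene, had −0.90 (adjusted p = 0.152), and Top2a −0.54 (adjusted p = 0.241), both from edgeR. In remaining cells the summed level was 2124 to 2448 CPM and 1825 to 2323 CPM and the median difference −0.05. The test of whether the genotype difference itself differs between the classes passed for 0 of 11971 genes (0%) and was negative for 21 of 22 G2/M genes. That test gave 494 genes at an unadjusted p under 0.05, and 38 calls without Atf4D/D replicate 2.

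All 18 tested hypoxia and glycolysis genes had a positive difference in stress-response cells (median 0.45), 5 of them at an unadjusted p under 0.05, beside 3.84% of all genes. The summed level was 5986, 7495, 4935 and 4063 CPM in Atf4wt/wt and 8395, 4585, 7256 and 8444 CPM in Atf4D/D tumours and the groups overlapped. Eno1, a glycolytic enzyme gene, had the smallest p of the list (log2 difference 0.57, adjusted p = 0.143), and Mxi1, a MYC antagonist, and Ndrg1 followed with 0.56 and 0.61. Leaving out Atf4wt/wt replicate 4 or Atf4D/D replicate 4 lowered the median to 0.25 and 0.26. Of 11 interferon response genes 10 had a negative difference (median −0.78), 7 of them at an unadjusted p under 0.05, beside 3.94% of all genes that were lower at that level. Their summed level was 613, 459, 744 and 902 CPM against 480, 718, 435 and 302 CPM, with overlap, and the median was −0.49 without Atf4wt/wt replicate 4. Leaving out 1 tumour at a time, the median ran from −1.10 to −0.49, and other settings gave −0.82 to −0.45. Usp18, an interferon-induced deubiquitinase-like gene, had −1.48 (adjusted p = 0.287) and Bst2, an antiviral membrane protein gene, −0.55 (adjusted p = 0.439). In remaining cells the hypoxia and interferon lists had medians of 0.26 and −0.66. Other values also varied between tumours in stress-response cells, with overlap between hosts. Col1a1 was at 2.37, 5.35, 2.81 and 5.86 CPM in Atf4wt/wt and 8.89, 5.10, 2.34 and 55.7 CPM in Atf4D/D tumours. The rRNA-linked Gm42418 was at 1393, 1764, 1923 and 690 CPM against 724, 646, 664 and 666 CPM (edgeR log2 difference −1.08, adjusted p = 0.115). The part of either in the list values was not tested.

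**Figure D5:**
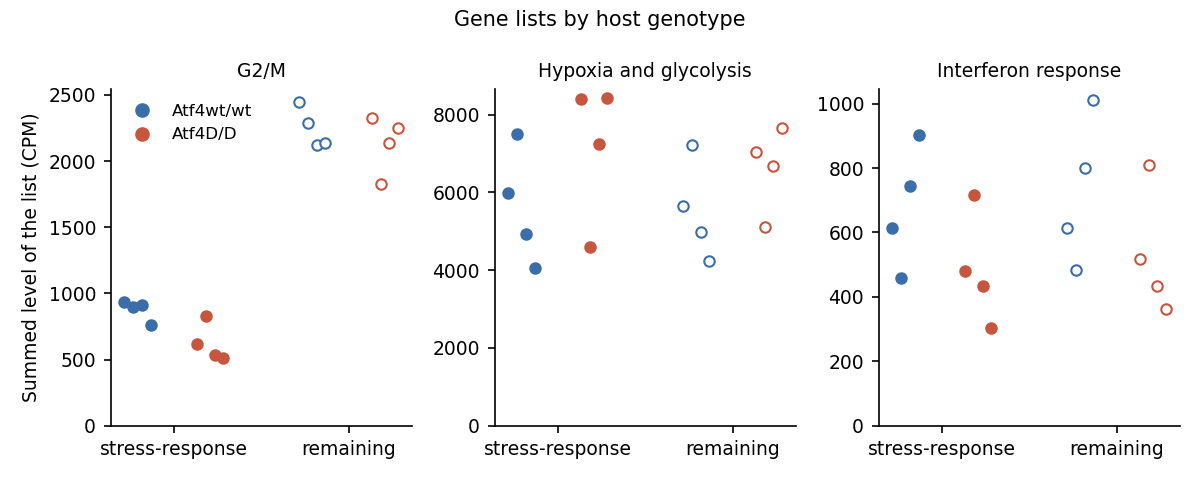
Summed level in CPM of the G2/M, hypoxia and interferon lists in each tumour, for stress-response cells (filled) and remaining melanoma cells (open), coloured by host genotype. In stress-response cells the G2/M sums lie from 758 to 936 CPM in Atf4wt/wt and from 508 to 830 CPM in Atf4D/D tumours, and the groups overlap in all 3 lists.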

How the data were processed

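The authors aligned reads to GRCm38 with Cell Ranger (3.1.0 in the submitters' processing notes, which also name Seurat 3.2.1) and deposited 1 matrix of unnormalized UMI counts for each of 8 tumours. Labels and paper differ on the 10x kit version (V3 in the labels), on host age and on the sequencer, for which the labels give the same instrument for every library. Groups and replicate numbers came from the labels. Depth was 37283598 to 74942137 UMIs per tumour.

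The members and gene lists were chosen with earlier results of these data known. Counts were summed over cells per tumour, scaled with TMM, and compared between classes as log2 ratios with 0.5 counts added, for genes with at least 10 CPM in gated cells. Genotypes were tested with edgeR 4.0.16 (filterByExpr, TMM, quasi-likelihood, threshold 0.05) in R 4.3.3 on the deposited counts, checked on simulated data, and the interaction with class kept the tumour as a block. DESeq2 1.42.0 was an alternative. Thinning drew UMIs without replacement. Of several windows per gene any match counted, and promoter sequences are from RefSeq and annotation from GENCODE. Genes to be named were the 6 score genes, Atf4, the 20 highest and 10 lowest by the least ratio over tumours, the 3 highest and the lowest of each list, the genes past the threshold or with the smallest p in each direction, and the 10 with the greatest least ratio of the top over the bottom score part. The text names only a part of these, and which part was decided after the values were seen, as were all genes outside the rule, among them Asns, Mki67, Atf6, Hspa8, Hsp90aa1, Txnrd1, Mcl1 and Eif2ak1. Replicates are separate tumours.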

Additional observations from a re-analysis of the deposited data

Results flagged for a closer look

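Ddit3 in all gated melanoma cells stood apart in 1 tumour. It was at 70.4 CPM in Atf4wt/wt replicate 1 and between 144 and 156 CPM in the other 3 Atf4wt/wt tumours, a gap of 0.864 of the group's range. This was the only one of 48 groups of 4 values examined to pass that criterion, which chance alone passes in about 1 in 20. The same tumour had the lowest share of stress-response cells in its group, and without it the genotype difference of Ddit3 was −0.21 in place of 0.01 on the log2 scale.

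Barcodes above the mitochondrial limit were not used in the comparisons. Of 8141 such barcodes that otherwise pass the melanoma gate, 697 (8.56%, or 8.57% after thinning to 4000 UMIs) exceeded the score limit, beside 10.0% of gated cells, and the share lay under that of gated cells in each tumour except Atf4D/D replicate 2 (12.3% against 12.2%).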

How the results depend on the processing

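The share difference kept its direction under 21 alternatives and passed the threshold in none, though male hosts alone (smallest possible p 0.1) and sign flips could not have passed, from −1.83 (top 5%) to −6.69 percentage points (top 20%), which change the size of the class. At equal size the score of Nupr1, Fgf21 and Ddit3 gave −1.85 (exact permutation p = 0.657) and that of Kdelr3, Hspa5 and Dnajb9 −5.22 (p = 0.2), and leaving out 1 tumour gave −5.81 to −2.11. The genes higher in every tumour numbered 84, but 55 (top 20%), 55 (cells thinned to 4000 UMIs) and 38 (score of Nupr1, Fgf21 and Ddit3), of which 53, 54 and 38 were among the 84, 112 with the top 5% (80 shared) and 125 with genes of at least 1 CPM (84 shared); without 1 tumour the count was 84 to 106. The 78 lower genes became 146 (top 5%), 11 (top 20%), 39 (score of Nupr1, Fgf21 and Ddit3), 46 (score of Kdelr3, Hspa5 and Dnajb9) and 46 (cells chosen on a random part of their UMIs and measured in the rest, 37 of them shared), and 78 to 99 without 1 tumour. In the setting that splits the UMIs 66 genes were higher, 61 of them shared. Lists with a median above that of all genes numbered 11 to 13 of 19 in every setting tried (12 as reported), and 405 of 418 list medians moved by less than the spread between tumours, and 13 moved by more. The sign changed in 9 of the 418, in 3 lists: cell death genes in 7 (up to 0.04 from −0.03), UPR and ISR sensors in 1 (−0.01 without TMM factors, from 0.02; it was 0.26 with genes of at least 1 CPM, 0.14 with the top 5% and 0.11 with split UMIs) and interferon genes in 1 (0.04 with the score of Nupr1, Fgf21 and Ddit3, from −0.23). Choosing the top 10% within each tumour sets the share by construction (a difference of 0.0157 percentage points is left) and says nothing about it.

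Genotype calls in stress-response cells (2) became 13 with DESeq2, 142 with every gene of at least 1 count kept, 1 with host sex as covariate, 1 with the score of Nupr1, Fgf21 and Ddit3, 1 with thinned cells, 0 with the top 10% within each tumour and 0 with the top 20%; they ranged from 0 to 18 without 1 tumour. Over all gated cells the 0 calls became 121 with DESeq2, 6 without TMM factors, 31 with every gene and 2 with host sex, and 0 to 8 without 1 tumour. For the difference between classes the 0 calls became 30 with every gene, and 0 to 38 without 1 tumour. The causes were not tested. In gated cells Ddit3 changed sign without Atf4wt/wt replicate 1 (−0.21), Atf4D/D replicate 2 (−0.17) or Atf4D/D replicate 3 (−0.06), and Atf4 in the same settings (−0.10, −0.03 and −0.05), and without 1 tumour they reached at most 0.15 and 0.10. Same-numbered tumours did not deviate together (correlations −0.03, −0.39, −0.11 and −0.21), so the numbers were not taken as pairs; with the replicate block stress-response cells had 1 call, and sign flips gave p = 0.5 for the share (exact permutation, smallest possible 0.125). The genotype medians of the G2/M, hypoxia and interferon lists in stress-response cells, an alternative chosen after seeing the data, kept their signs in all settings tried. They lay between −0.66 and −0.23 for G2/M, 0.25 and 0.64 for hypoxia, and −1.10 and −0.45 for interferon genes.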
